A study of Mus musculus with 6 samples.

Results

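The mitochondrial ribosomal protein genes were taken as every protein-coding row of the count table whose name starts with Mrpl or Mrps followed by a digit, which gave 78 of the 54532 genes listed. Of these, 49 carried a large subunit name (Mrpl) and 29 a small subunit name (Mrps). RNA had been sequenced from whole hearts of 3-month-old male C57BL/6 mice, 3 per genotype, and reads had been counted per gene. The α1r/rα2s/s mice carried the naturally cardiotonic steroid-resistant Na/K-ATPase α1 and are called resistant, and the age-matched α1s/sα2s/s mice carried an α1 made sensitive by amino acid substitution and are called sensitive. In both genotypes the α2 isoform was of the sensitive form, and the α1 substitution was present in every tissue of the mouse and not in cardiac myocytes alone. Resistant hearts 1, 2 and 3 came from mice 368, 369 and 370 and sensitive hearts 1, 2 and 3 from mice 379, 380 and 381, and values are given in that order. The question was whether mitoribosomal protein transcripts differed between the genotypes, and whether the large and small subunits differed in the same way.

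Mitochondria translate the few proteins encoded by their own genome on a ribosome of their own, the mitoribosome. Its ribosomal RNAs are transcribed from mitochondrial DNA, whereas its proteins are encoded in the nucleus, made in the cytosol and imported, so the particle is assembled from the products of both genomes. Its small subunit decodes the mRNA and its large subunit forms the peptide bond, and the heart, which depends on oxidative phosphorylation, is among the tissues affected when mitoribosomal proteins are mutated in humans.

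Library totals ran from 19309312 to 20470065 counts, and the 78 genes together took 0.315% to 0.331% of them. Counts of mitochondrially encoded genes made up 23.4% to 24.4% of resistant and 25.0% to 26.0% of sensitive libraries. The genotype cannot be checked from counts, since a substitution leaves the transcript in place. All 7 cardiomyocyte markers were counted in every heart, with a summed level of 44076 to 54734 CPM (counts per 1000000, with library sizes scaled by edgeR's TMM factors).

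No mitoribosomal protein gene passed the test between genotypes. Of the 78, Mrpl53 had no count in any heart and was not tested, and 88% of its exon bases are shared with Gm42688 on the same strand. Of the other 77, 0 were called by edgeR's quasi-likelihood test at an adjusted p of 0.05, against 1.44% of the 14866 genes tested (0.78% higher and 0.659% lower in sensitive hearts), and the lowest adjusted p was 0.184. At 0.1 there were again 0 members, against 2.7% of all genes. DESeq2 likewise called 0 of 77, where it called 3.65% of the genes to which it gave an adjusted p, and its lowest adjusted p for a member was 0.242. At an unadjusted p under 0.05 there were 4 of 77 members (5.19%) against 14.5% of all genes tested, with Mrps17 and Mrps24 higher (7.19% of all genes) and Mrpl19 and Mrps27 lower (7.27%) in sensitive hearts. The standard errors of the log2 fold changes were 0.065 to 0.14, with a median of 0.091, and all 77 of the 95% intervals lay within a 1.5-fold change in either direction while 66 lay within 1.3-fold.

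**Figure D1:**
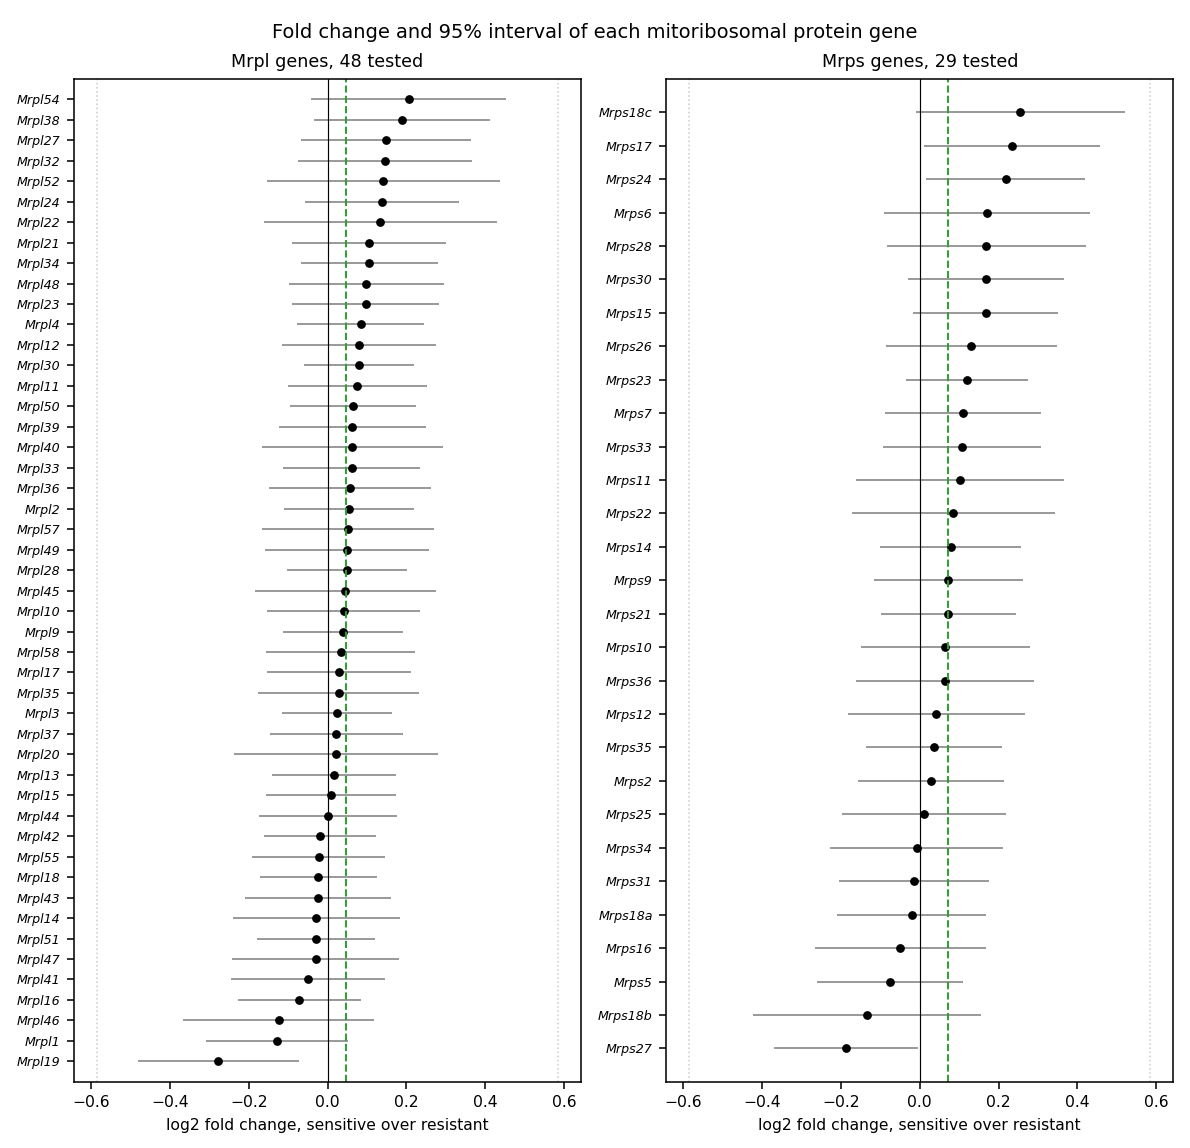
Log2 fold change (sensitive over resistant, x axis) of the 48 Mrpl and 29 Mrps genes tested, as points with 95% intervals, ordered by value. The dashed green line is the median of each panel, 0.047 for Mrpl and 0.073 for Mrps genes, and dotted lines mark a 1.5-fold change, which no interval reaches.

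The values were small and leaned upward. In sensitive hearts 58 of 77 members (75.3%) had a log2 fold change above 0, against 48.4% of all genes tested, and the split was alike in both subunits, with 36 of 48 Mrpl and 22 of 29 Mrps genes. The median log2 fold change was 0.054 over the members, 0.047 over Mrpl and 0.073 over Mrps genes, beside -0.0078 over all genes tested. The direction against 0 depended on the scaling. With library totals alone, without a composition factor, 25 of 77 members were above 0, the members' median was -0.029 and the median of all genes was -0.091. The distance from the members' median to that of all genes was 0.062 under both scalings.

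The 3 hearts of each genotype overlapped for most members. They did not overlap for 10 of 77 (13.0%), against 20% of all genes tested. Of these, 6 were higher in every sensitive heart, against 10% of all genes, and 4 were lower, against 9.98%. The higher ones were Mrps18c, Mrps6, Mrps30, Mrpl34, Mrpl30 and Mrpl23, of which the last pair is named only because its hearts did not overlap, and the lower ones were Mrpl19, Mrps27, Mrpl1 and Mrpl16.

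The lean was most marked in sensitive heart 3. It held the highest value of the 6 hearts for 41 of 77 members (53.2%), against 21.7% of all genes, and resistant heart 2 held the lowest for 32 of 77 (41.6%), against 18.3%. Centred on each gene's 6-heart mean, the mean log2 CPM of the members was -0.018, -0.069 and 0.015 in resistant and -0.0090, -0.021 and 0.10 in sensitive hearts. Sensitive hearts 1 and 2 thus lay between resistant hearts 2 and 3, and sensitive heart 3 lay above all others. Without sensitive heart 3, 46 of 77 members were above 0, the median of the Mrpl genes was 0.020 and that of the Mrps genes was 0.028, and 0 members passed the test.

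**Figure D2:**
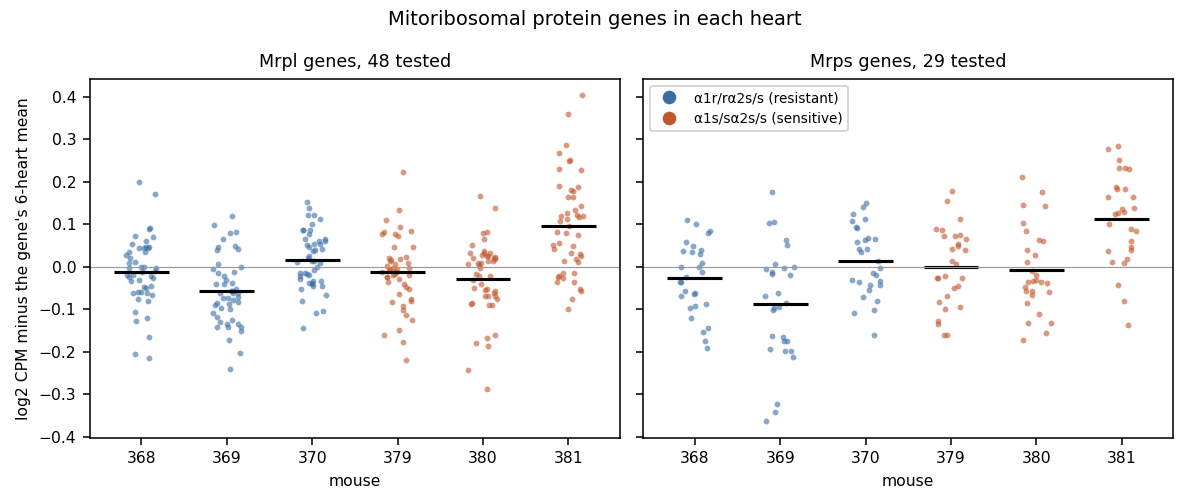
Log2 CPM of each gene minus its mean over the 6 hearts (y axis) for the 48 Mrpl and 29 Mrps genes tested, by mouse (x axis), with blue for resistant and orange for sensitive hearts and a bar at the mean. Mouse 381 has the highest mean in both panels, 0.096 for Mrpl and 0.11 for Mrps genes, and mouse 369 the lowest, -0.057 and -0.089.

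Sensitive heart 3 also had the lowest summed levels of several non-myocyte marker lists. Its fibroblast sum was 988 CPM, against 1113 to 1307 in the other hearts, and its macrophage sum was 272 CPM, against 303 to 477. Its endothelial sum was 757 CPM, against 881 to 1035, and its smooth muscle and pericyte sum was 834 CPM, against 907 to 975. Between genotypes, 2 of 7 fibroblast, 2 of 6 endothelial, 0 of 6 smooth muscle and pericyte, 0 of 6 macrophage and 0 of 3 tested lymphocyte markers were higher in sensitive hearts, with median log2 fold changes of -0.26, -0.042, -0.29, -0.39 and -0.58. The higher fibroblast markers were Pdgfra (0.14) and Dcn (0.057), whereas Col1a1, Col1a2, Col3a1, Tcf21 and Lum were lower. Tie1 (0.12) and Pecam1 (0.0016) were the higher endothelial markers, and Kdr had the lowest endothelial value (-0.50). A sum thus does not stand for every marker in its list. Of the cardiomyocyte markers 5 of 7 were higher, with a median of 0.065, which became -0.018 with library totals alone. All 5 erythroid markers were higher, with sums of 401 to 3187 CPM, the highest in sensitive heart 2, and a median log2 fold change of 0.66. Without sensitive heart 2, 0 of 5 were higher and the median was -0.79. Of the skeletal muscle markers 3 of 4 tested were higher, with sums of 1067 to 1302 CPM and Myh4 at 0. Nearly all of these sums came from Ckm (902 to 1082 CPM) and Acta1 (156 to 312 CPM). The paper measured Acta1 as part of the cardiac fetal gene program, so the sums are not specific to skeletal muscle. Mylpf and Tnnt3 were at 0.143 to 1.48 CPM, with log2 fold changes of -0.75 and 0.77. The adipocyte sum stayed between 0.854 and 3.77 CPM with Ucp1 at 0. No marker passed edgeR's test, where Col3a1 had the lowest adjusted p (0.0542, lower in sensitive hearts). Acta1 came next (0.0548) and was higher in every sensitive heart, with a log2 fold change of 0.52 ± 0.12. The paper reported it unchanged by RT-qPCR in left ventricles, whereas whole hearts were sequenced here. At an unadjusted p under 0.05 in edgeR's test, 4 of 7 fibroblast, 2 of 6 endothelial and 2 of 6 macrophage markers were lower. So were 3 of 6 smooth muscle and pericyte and 1 of 3 tested lymphocyte markers. Acta1 and the adipocyte marker Plin1 were higher at that level. DESeq2 called 4 markers, all lower in sensitive hearts, which were Col1a1 (adjusted p = 0.0120), Acta2 (adjusted p = 0.0339), C1qa (adjusted p = 0.0395) and Mrc1 (adjusted p = 0.00657). Without the filter on low counts edgeR called 4 of 6 macrophage and 2 of 7 fibroblast markers lower and 5 of 5 erythroid markers higher. The share of all genes called by that fit is not given here, so these counts have no background beside them. With the filter, the erythroid markers had unadjusted p-values of 0.186 to 0.386 in edgeR's test. The part of cell makeup in the members' values was not tested. In whole hearts, fewer cells of a type and less RNA per cell cannot be told apart.

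Large and small subunit genes kept nearly the same balance. The mean centred log2 CPM of the Mrpl genes minus that of the Mrps genes was 0.015, 0.032 and 0.0029 in resistant hearts and -0.013, -0.021 and -0.016 in sensitive hearts. The genotypes did not overlap in this quantity, but the distance between their means was 0.033 on the log2 scale, and no p is given for a score over the members. The difference of the subunits' median log2 fold changes was -0.026 (Mrpl minus Mrps). Left out one at a time, the hearts moved it between -0.052 and -0.0085, the latter without sensitive heart 3. In summed CPM the Mrpl genes went from 2179 ± 48.6 to 2227 ± 87.3 and the Mrps genes from 1015 ± 30.4 to 1068 ± 61.7 (resistant to sensitive, SD, n = 3), and for both the 2 ranges overlapped.

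Some names do not follow the structure of the particle. Mrps18a and Mrps30 encode proteins that sit in the large subunit of the mammalian mitoribosome, and Mrps36 encodes a component of the 2-oxoglutarate dehydrogenase complex. With the first pair moved to the large subunit and Mrps36 set aside, the medians were 0.047 for the large and 0.075 for the small subunit. Split by ancestry, 23 of 30 large subunit genes with a bacterial homologue were above 0 with a median of 0.045, as were 13 of 18 of those specific to mitochondria with a median of 0.048. In the small subunit, 14 of 16 genes with a bacterial homologue were above 0 with a median of 0.090, and 6 of 10 of those specific to mitochondria with a median of 0.023. Mrps18b (-0.13) was counted among these 10, although its paralogue Mrps18c was placed in the class with a bacterial homologue. The contrast between the small subunit classes rests in part on that placement. None of these classes held a gene that passed the test, and the difference between the small subunit classes was not tested. With library totals alone the small subunit class with a bacterial homologue kept a median above 0 (0.0057), and the other 3 were below it (-0.037, -0.037 and -0.058).

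In the small subunit the most positive value was that of Mrps18c, one of a set of 3 paralogues of the bacterial protein S18. It was at 16.4, 12.6 and 15.1 CPM in resistant and 16.8, 16.4 and 19.3 CPM in sensitive hearts. All sensitive hearts were above all resistant ones, though sensitive heart 2 exceeded resistant heart 1 by little. Its log2 fold change was 0.26 ± 0.12 (SE; edgeR adjusted p = 0.366). The paralogue Mrps18b was at 9.64, 11.2 and 10.3 CPM in resistant and 8.84, 9.31 and 10.2 CPM in sensitive hearts, which overlapped (log2 fold change -0.13 ± 0.14, adjusted p = 0.700). Mrps18a, the large subunit member of the trio, had a log2 fold change of -0.020 ± 0.089. The paralogues thus had fold changes of both signs, none past the test.

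Mrps17, a protein that binds the small subunit RNA, was at 30.0, 26.7 and 36.1 CPM in resistant and 37.2, 35.4 and 36.5 CPM in sensitive hearts. Its sensitive hearts lay close together, and resistant heart 3 was among them. The log2 fold change was 0.23 ± 0.10 (adjusted p = 0.322). Mrps24, which stands at the mRNA entry side of the small subunit, was at 41.0, 35.1 and 35.9 CPM in resistant and 43.3, 39.1 and 47.7 CPM in sensitive hearts, with resistant heart 1 above sensitive heart 2 (log2 fold change 0.22 ± 0.095, adjusted p = 0.307). Of its exon bases 15.4% were shared with Urgcp on the same strand, and the value for Urgcp was 0.24 on the log2 scale (adjusted p = 0.159). Mrps6 followed with 0.17 ± 0.12 and was higher in every sensitive heart, at 12.1 to 13.3 CPM against 10.5 to 11.5 CPM.

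At the other end of the small subunit stood Mrps27, a protein with pentatricopeptide repeats, which are RNA-binding motifs. It was at 37.1, 37.0 and 36.1 CPM in resistant and 31.5, 30.5 and 34.8 CPM in sensitive hearts. Every sensitive heart was below every resistant one. The log2 fold change was -0.19 ± 0.086 with an unadjusted p of 0.0458 (adjusted p = 0.336). The noncoding gene 6430562O15Rik covers 24.2% of its exon bases on the opposite strand, with a log2 fold change of -0.67 (edgeR adjusted p = 0.0862). The strand setting of the counting is not given in the sources used here, and without strand the reads of such a pair cannot be told apart. Mrps5 (-0.075) and Mrps16 (-0.049) completed the lower end, and both overlapped between genotypes.

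Among the large subunit genes Mrpl19 had the most negative value. The protein lies near the face that meets the small subunit. The gene, on chromosome 6 from 81957851 to 81965958 on the minus strand, was at 26.5, 24.5 and 25.5 CPM in resistant and 19.9, 20.7 and 22.6 CPM in sensitive hearts. The sensitive hearts were all lower, by a gap smaller than the range within either genotype. Its log2 fold change of -0.28 ± 0.096 was the largest in size over all members, with an unadjusted p of 0.0110 and an adjusted p of 0.184. It shares 36% of its exon bases with Gcfc2 on the opposite strand, for which the log2 fold change was -0.17 (adjusted p = 0.757). Mrpl1, of the stalk past which used tRNAs leave the ribosome, was at 38.0, 37.3 and 36.7 CPM in resistant and 31.5, 35.8 and 35.1 CPM in sensitive hearts. These did not overlap (log2 fold change -0.13 ± 0.085, adjusted p = 0.519). Mrpl46 had -0.12 ± 0.11 with overlapping hearts and Mrpl16 -0.072 ± 0.073 without overlap.

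The most positive Mrpl genes were Mrpl54, Mrpl38, Mrpl27 and Mrpl32, at log2 fold changes of 0.21 ± 0.12, 0.19 ± 0.10, 0.15 ± 0.10 and 0.15 ± 0.10. Mrpl54, found only in mitochondrial ribosomes, was at 21.9, 24.4 and 25.2 CPM in resistant and 25.5, 24.3 and 32.7 CPM in sensitive hearts (adjusted p = 0.439). Sensitive heart 3 stood well above the rest, and sensitive heart 2 lay below resistant hearts 2 and 3. Mrpl38 was at 31.2, 31.2 and 39.1 CPM in resistant and 38.0, 35.4 and 42.2 CPM in sensitive hearts, and resistant heart 3 lay inside the sensitive range. For all 4 of these genes sensitive heart 3 was the highest of the 6 hearts.

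**Figure D3:**
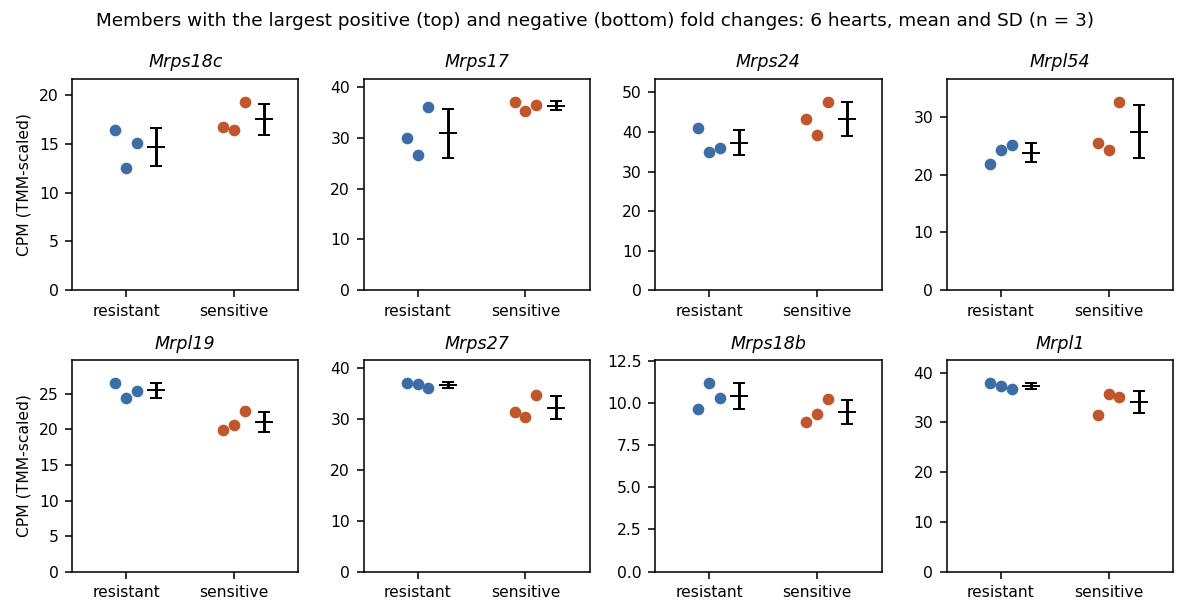
TMM-scaled CPM (y axis, from 0) of the 4 members with the most positive and the 4 with the most negative log2 fold change in each heart, blue for resistant and orange for sensitive, with mean and SD (n = 3) beside. Mrpl19, Mrps27, Mrpl1 and Mrps18c have no overlap between the genotypes, and the other 4 do overlap.

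Members with a known role in the working of the particle showed no fold change that passed the test. Mrpl12, Mrpl10 and Mrpl11 form the stalk and its base, where translation factors dock, and had log2 fold changes of 0.081 ± 0.091, 0.041 ± 0.091 and 0.076 ± 0.083. Mrpl12 was at 54.9, 52.3 and 53.7 CPM in resistant and 60.2, 48.2 and 61.5 CPM in sensitive hearts, so that sensitive heart 2 was the lowest of all. Mrps12, at the decoding centre, had 0.042 ± 0.11, and Mrpl58, a peptidyl-tRNA hydrolase that rescues stalled ribosomes, had 0.034 ± 0.088. Mrpl3 and Mrpl44, mutated in human infantile cardiomyopathy, had 0.024 ± 0.065 and 0.0019 ± 0.082. For Mrpl3, the hearts ran from 91.7 to 96.2 CPM in resistant and from 95.1 to 97.0 CPM in sensitive mice, and its 95% interval of -0.11 to 0.16 was among the narrowest. Other genes mutated in human mitochondrial disease had values of 0.028 (Mrps2), 0.11 (Mrps7), -0.049 (Mrps16), 0.085 (Mrps22) and -0.0083 (Mrps34). Mrps30 had 0.17 ± 0.093 with no overlap between genotypes, and Mrps36 had 0.064 ± 0.11.

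Levels per kilobase of transcript spread widely within each subunit, although the proteins are mostly present once per particle. Using the gene length in the count table, mean levels over the 6 hearts ran from 4.27 CPM per kb (Mrpl19) to 66.2 (Mrpl34) with a median of 18.1 for Mrpl genes, and from 2.78 (Mrps10) to 86.5 (Mrps21) with a median of 11.2 for Mrps genes. Next to the top were Mrpl28 (54.3) and Mrpl42 (53.3), and Mrps23 (74.2) and Mrps28 (47.0). At the bottom were Mrpl17 (4.73) and Mrpl15 (4.88), and Mrps30 (3.78) and Mrps25 (4.33). Neighbours in these orders mostly did not differ beyond the spread of the hearts, which overlapped for 43 of 47 adjacent Mrpl pairs and 24 of 28 Mrps pairs.

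The order turned on the length used. With the length of the principal transcript of each gene in place of the table's length, Mrpl42 reached 295 CPM per kb and Mrps10 22.1, and 69 members changed rank. The Spearman correlation of both orders was 0.745 over the 48 Mrpl and 0.814 over the 29 Mrps genes, which share the same counts. Mrps25 shares 69.8% of its exon bases with Nr2c2 and Mrps34 63.4% with Mapk8ip3, and how reads in shared bases were counted is not given in the sources used here.

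**Figure D4:**
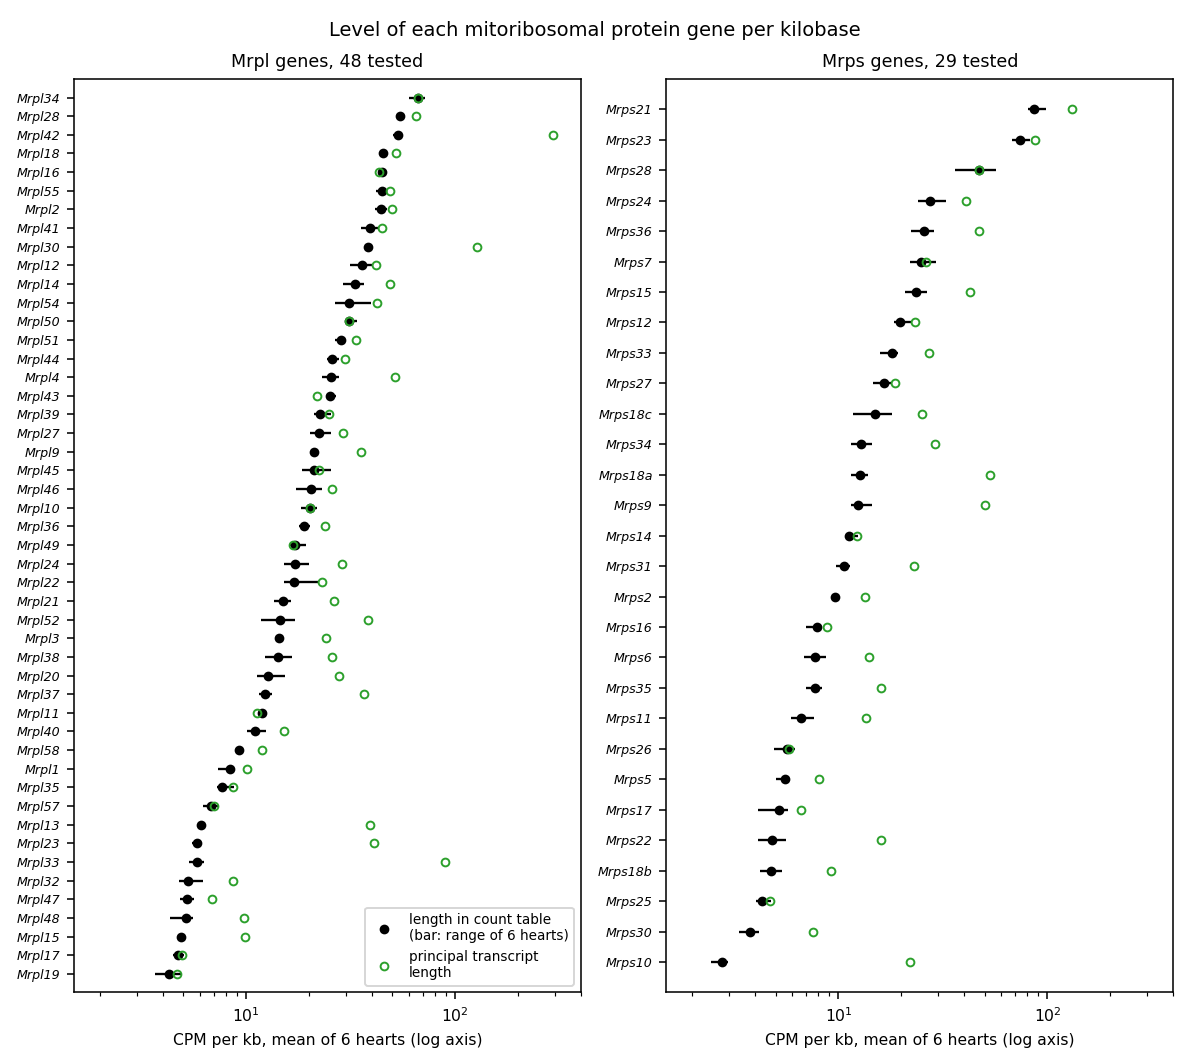
Mean CPM per kilobase over the 6 hearts (x axis, log scale) for the Mrpl and Mrps genes tested, with the length in the count table (filled, bar for the range of the hearts) and with the principal transcript length (open). Filled points run from 4.27 to 66.2 for Mrpl and from 2.78 to 86.5 for Mrps genes. Open points lie farther right the more the table length exceeds the principal transcript length. They lie to the left where the principal transcript is the longer, as for Mrpl43.

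Levels were steady between hearts of one genotype. The median within-genotype coefficient of variation was 6.83% over the members, 5.53% for Mrpl and 7.67% for Mrps genes, against 11.2% over all genes tested. Counting error alone gives a median of 3.79% at the members' depth, which was 199 to 3933 counts per heart on average with a median of 694.5. Lower variation was also seen at greater depth in the nuclear respiratory chain genes (5.82%) and cytosolic ribosomal protein genes (6.14%).

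Mitoribosomal protein genes often had a close neighbour. Another protein-coding gene started within 1000 bases on the opposite strand, pointing away, for 18 of 78 members (23.1%), against 9.72% of the protein-coding genes tested. Noncoding genes were not searched for such starts. These include Mrpl32 with Psma2, a proteasome subunit gene, and Mrps18c with Helq, a DNA helicase gene. Of the 17 such pairs with both genes tested, 10 had fold changes of the same sign. Exon bases were shared with another gene for 33 of 78 (42.3%), against 36.4% of the protein-coding genes tested. Mrpl46 and Mrps11 overlap each other and had values of -0.12 and 0.10, and Mrpl43 shares 33.4% of its exon bases with Twnk, the mitochondrial DNA helicase gene, with values of -0.024 and 0.22. Without the genes with shared exon bases the median was 0.054 for 27 Mrpl and 0.069 for 18 Mrps genes.

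Promoters of 69 members were found in RefSeq (GRCm38.p6), each as 300 bases ending 50 bases after the start. Exact matches on either strand were counted for motifs of nuclear factors known at genes for mitochondrial proteins: NRF1 (core CGCATGCG), the ETS family (CCGGAAGT) and YY1 (AAGATGGC). NRF1's letters were in 7 of 69 windows (10.1%, against 2.65% of 16497 protein-coding genes), the ETS letters in 11 (15.9%, against 5.51%) and the YY1 letters in 12 (17.4%, against 3.29%). The 16497 genes include some not tested in these hearts, unlike the tested genes set beside the close neighbours above. A share among the genes tested was not computed. The YY1 matches of Mrpl35, Mrpl37, Mrpl42, Mrpl49, Mrps7, Mrps18a, Mrps24 and Mrps27 began at bases 12 to 37 after the start. The other YY1 matches lay before it. Any of the 3 was in 28 of 69 (40.6%, against 10.8%), 2 windows held more than 1 motif and none of those matches overlapped, and no match says only that these letters are not in the window. The 250 bases before the start are shown for the most positive and most negative Mrps gene and for the 2 most positive Mrpl genes with a promoter. Mrpl54, Mrpl38 and Mrpl19 are among the 9 members without one. Every window shown holds a match, although most of the 69 hold none. The windows of Mrpl1, Mrpl46 and Mrpl16, with negative fold changes, hold none and are not shown. Bases run 5′ to 3′ on the strand of the gene, with matches in capitals. ACTTCCGG is the ETS motif and GCCATCTT the YY1 motif read on the other strand. Mrpl32 lies at chr13:14613038-14613287 (minus strand), Mrpl27 at chr11:94653541-94653790 (plus), Mrps18c at chr5:100798509-100798758 (plus) and Mrps27 at chr13:99344536-99344785 (plus).
Mrpl32: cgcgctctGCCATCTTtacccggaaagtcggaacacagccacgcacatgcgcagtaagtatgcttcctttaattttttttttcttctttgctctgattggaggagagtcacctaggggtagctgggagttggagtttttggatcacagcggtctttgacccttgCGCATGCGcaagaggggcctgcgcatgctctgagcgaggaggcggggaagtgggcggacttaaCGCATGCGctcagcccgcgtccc
Mrpl27: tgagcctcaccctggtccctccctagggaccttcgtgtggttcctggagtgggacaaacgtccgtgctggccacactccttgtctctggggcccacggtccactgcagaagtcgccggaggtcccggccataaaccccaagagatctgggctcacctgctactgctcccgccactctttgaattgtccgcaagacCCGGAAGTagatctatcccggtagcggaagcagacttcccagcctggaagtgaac
Mrps18c: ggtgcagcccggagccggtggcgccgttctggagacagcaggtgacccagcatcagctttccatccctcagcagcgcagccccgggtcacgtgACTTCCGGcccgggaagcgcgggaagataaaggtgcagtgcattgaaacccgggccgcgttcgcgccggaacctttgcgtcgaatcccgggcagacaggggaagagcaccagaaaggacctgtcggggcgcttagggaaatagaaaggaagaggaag
Mrps27: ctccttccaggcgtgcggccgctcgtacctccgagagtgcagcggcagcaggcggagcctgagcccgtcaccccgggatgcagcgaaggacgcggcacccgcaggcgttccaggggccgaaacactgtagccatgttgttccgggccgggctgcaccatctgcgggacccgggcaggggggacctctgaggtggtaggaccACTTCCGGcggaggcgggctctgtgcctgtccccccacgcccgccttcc
The window of Mrpl32 holds the NRF1 core at separate places and the YY1 letters once. Those of Mrps18c and Mrps27 both hold the ETS letters, and the genes had the most positive and the most negative fold change of the small subunit. The window of Mrps27 also holds the YY1 letters from base 15 after the start, beyond the bases shown. Over all members with a promoter and a test, the median log2 fold change was 0.046 for the 28 with a motif and 0.063 for the 40 without.

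Genes that work beside the mitoribosomal proteins mostly had small fold changes, and those that passed the test were both ribosomal RNAs and mt-Nd4l. Of the 5 mitoribosomal proteins with other names, 4 were above 0 with a median of 0.19 and 0 passed the test. Dap3, a GTP-binding protein of the small subunit, was at 68.9, 66.0 and 76.3 CPM in resistant and 79.6, 77.5 and 85.8 CPM in sensitive hearts (log2 fold change 0.20 ± 0.077, adjusted p = 0.237), and Aurkaip1, also of the small subunit, was at 49.2 to 49.8 and 53.8 to 59.9 CPM (0.19 ± 0.075, adjusted p = 0.242). Both were higher in every sensitive heart. These genes fall outside the naming rule of the 78 and were not counted with them.

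Factors that build the particle or run translation were spread to both sides. Of 27 assembly and rRNA modification genes, 14 were above 0 with a median of 0.011, led by Ddx28, an RNA helicase of large subunit assembly (0.41 ± 0.14, adjusted p = 0.166), and Ngrn (0.28 ± 0.11, adjusted p = 0.260). Translation factors had 10 of 16 above 0 with a median of 0.029, and the smallest p values were those of Taco1, an activator of Cox1 translation (-0.20 ± 0.077, adjusted p = 0.232), and Mtif2, an initiation factor (-0.19 ± 0.079, adjusted p = 0.286). Aminoacyl-tRNA synthetases had 12 of 20 above 0 with a median of 0.043, with Wars2 at 0.33 and Rars2 at -0.21. For mitochondrial transcription and replication 7 of 10 were above 0 with a median of 0.062, with Tefm at -0.27 and Twnk at 0.22. No gene of these lists passed the test.

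Regulators of mitochondrial biogenesis leaned downward, with 3 of 11 above 0 and a median of -0.058. Ppargc1b, a coactivator, was at 24.2, 28.6 and 30.6 CPM in resistant and 23.0, 21.7 and 20.6 CPM in sensitive hearts (-0.35 ± 0.11, adjusted p = 0.129), and Yy1 was at 57.0 to 60.6 and 66.5 to 72.5 CPM (0.23 ± 0.072, adjusted p = 0.145). Neither overlapped between genotypes, and 0 of the 11 passed the test. With library totals alone the members' median was negative, as were those of the assembly, factor, synthetase and transcription lists, and the regulators' median stayed below 0. The assembly median was also just below 0 with upper-quartile factors, at -0.0014.

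The ribosomal RNA of the particle did differ. mt-Rnr2, the large subunit rRNA, was at 6530, 6239 and 7729 CPM in resistant and 9143, 11029 and 11234 CPM in sensitive hearts, a log2 fold change of 0.62 ± 0.098 (adjusted p = 0.00570). mt-Rnr1, the small subunit rRNA, was at 2487, 2258 and 2850 CPM in resistant and 3192, 3567 and 4067 CPM in sensitive hearts, a log2 fold change of 0.51 ± 0.099 (adjusted p = 0.0216). Both rose in every sensitive heart, and sensitive heart 3 was the highest for both. Leaving out resistant heart 1 or 2 or sensitive heart 2 or 3 took the adjusted p of mt-Rnr1 to between 0.0550 and 0.0851. Of the 13 mitochondrially encoded proteins 12 were above 0 with a median of 0.13, and mt-Nd4l, a complex I subunit, rose by 0.48 ± 0.076 (adjusted p = 0.00570). The widest values among them, named after they were seen, were 0.66 ± 0.25 for mt-Co2 (adjusted p = 0.230) and -0.54 ± 0.25 for mt-Co3 (adjusted p = 0.349), subunits of complex IV whose hearts overlapped between genotypes. Beside mt-Nd4l, the other complex I subunits encoded there had smaller values. These were 0.36 (mt-Nd3), 0.21 (mt-Nd1), 0.19 (mt-Nd2), 0.12 (mt-Nd4), 0.089 (mt-Nd6) and 0.043 (mt-Nd5). How ribosomal RNA was depleted or mRNA selected is not given in the sources used here, and its part in any value of this paragraph was not tested.

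Other large protein complexes of the heart leaned the same way by somewhat more. Nuclear respiratory chain genes were above 0 for 77 of 83 with a median of 0.11, and cytosolic ribosomal protein genes for 76 of 81 with a median of 0.10, and 0 of either passed the test. Both sets were taken by gene name. The cytosolic set thus also holds Rps19bp1 (0.095), named as a binding protein of Rps19, and Rpl7l1 (-0.10), named as Rpl7-like. With library totals alone 59 of 83 and 50 of 81 were above 0, with medians of 0.025 and 0.017. Sensitive heart 3 had the highest mean in both of these sets too, at 0.12 and 0.11 centred log2 CPM, beside 0.096 for Mrpl and 0.11 for Mrps genes. The differences between these medians and those of the mitoribosomal genes were not tested.

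**Figure D5:**
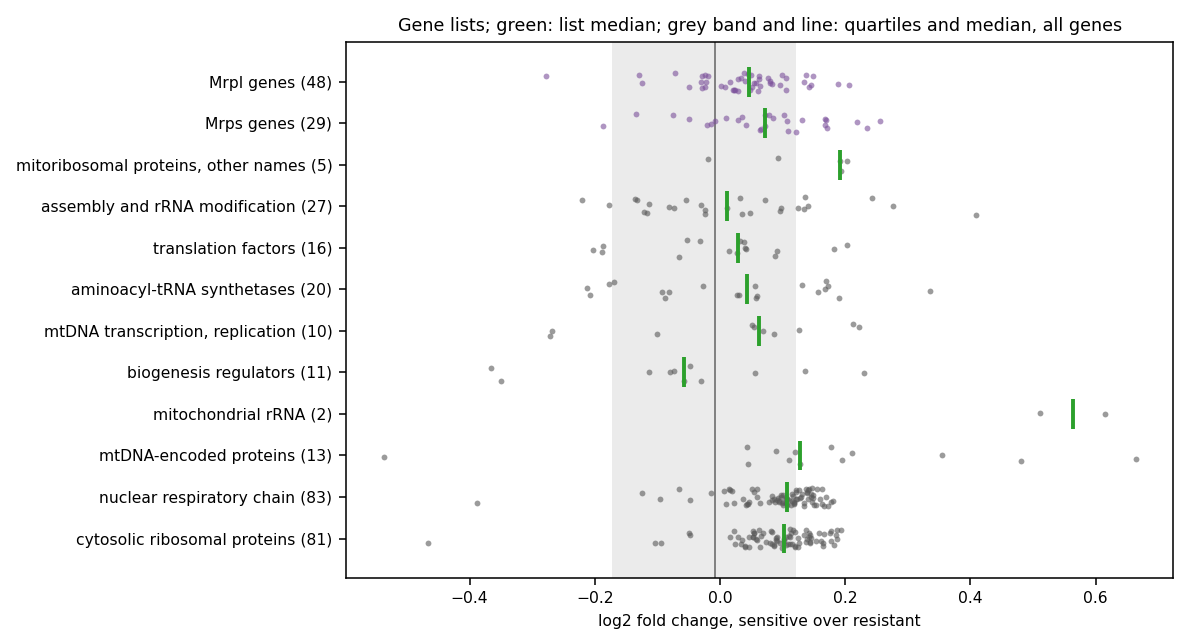
Log2 fold change (sensitive over resistant, x axis) of each gene tested in 12 lists, with the number tested in parentheses, the list median in green and the median and quartiles of all genes tested in grey. The Mrpl and Mrps medians, 0.047 and 0.073, lie inside the grey band, and the mitochondrial rRNA lies far to the right at 0.51 and 0.62.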

How the data were processed

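Deposited whole-number counts per gene and gene lengths were used. Per the submitters' processing notes, fastp, STAR and featureCounts were run against mm10, with no versions given, and the strand setting and handling of shared reads are not given in the sources used here. The authors' own DESeq2 comparison (means, fold changes, errors, statistics and p-values) was not used. Groups came from the sample labels, 3 hearts each.

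Genes passing filterByExpr (minimum count 10, minimum total 15) were TMM-scaled and tested in edgeR 4.0.16 (R 4.3.3) with quasi-likelihood F-tests, p-values being adjusted by Benjamini-Hochberg over 14866 genes at a threshold of 0.05. DESeq2 1.42.0 was an alternative, with its filter set at 0.1. Both were tested on simulated data. The SE is the size of the log2 fold change over the square root of F. Centred values used log2 CPM with a prior count of 2. Replicate hearts differed by more than counting noise, with a chi-square per gene of 6.86 to 13.2 between pairs. Counting error does not cover variation between animals. Coordinates and overlaps came from GENCODE M21 (GRCm38), where 73 of 78 members had identical coordinates.

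The members and lists were chosen with earlier results of these data known. Named members were those past the test, the 4 most positive and 4 most negative and the 3 highest and 3 lowest per kilobase in each subunit, the Mrps18 paralogues, members with a known role, those with an unadjusted p under 0.05 and no overlap, and the 2 genes with the smallest p or any past the test in each list. Levels of the targeted gene are not reported here. Alternatives changed the normalization, filter, tool, length and GC correction, and left out each heart.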

Additional observations from a re-analysis of the deposited data

How the results depend on the processing

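Across every alternative fit 0 of 77 members had an adjusted p under 0.05, and the lowest, 0.0914 for Mrpl19, came with library totals alone. Counting an unadjusted p under 0.05 gave 4. With library totals alone, chosen after seeing the data, 25 members were above 0 and the medians were -0.037 for Mrpl and -0.011 for Mrps genes, because the composition factors were left out. In all other fits with the 6 hearts 54 to 58 were above 0. A length and GC correction took the Mrpl minus Mrps difference to -0.042, and the cause was not tested. Leaving out each heart in turn gave 46 to 64 members above 0, Mrpl medians of 0.020 to 0.067, Mrps medians of 0.028 to 0.11, differences of -0.052 to -0.0085, and 0 members past the threshold. The members' median exceeded that of all genes by 0.046 to 0.072 with 6 hearts and by 0.024 to 0.081 with 1 left out.

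Of 77 members 30 kept their sign in all 15 fits. mt-Nd3 passed the test in DESeq2 (adjusted p = 0.0194) and in edgeR without the filter (adjusted p = 5.08e-04). The unfiltered fit also called every erythroid marker higher, and its share of calls over all genes is not given here. Without resistant heart 2 the adjusted p of mt-Nd3 in edgeR's test was 0.320. No paired analysis was possible because the labels give only mouse numbers, which the genotypes do not share, and the heart numbers used here only name the samples. With 3 hearts per genotype and errors near 0.091 on the log2 scale, a difference as small as the medians given could not be detected for 1 gene.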

Other observations

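Pseudogene copies of mitoribosomal protein genes drew few reads. Of 5 processed pseudogenes, Mrpl23-ps1 had 5 to 11 counts per heart and Mrps36-ps1 0 to 7, and Mrps36-ps3 had none. The parent genes Mrpl23 and Mrps36 were at 26.9 to 30.0 and 28.4 to 36.6 CPM.

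The 78 genes lay on 17 chromosomes, with 11 on chromosome 11, 8 on chromosome 17 and 7 on chromosome 6.

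Of the members with a start shared head to head, the partners had a median log2 fold change of 0.093 over 17 pairs. Mrps5 and its partner Zfp661 had values of -0.075 and 0.44, and Mrpl54 and Apba3 had 0.21 and 0.093.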
